A study of Mus musculus with 20 samples.

Results

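Cisplatin was tested under adenosine receptor blockade by comparing 5 LLC1 tumors from mice that received cisplatin and KW6002 together (cotreatment) with 5 LLC1 tumors from mice that received KW6002 without cisplatin. These 10 tumors were chosen by their sample titles from 20 sequenced tumors, and all genes that passed a filter on low counts entered the test. LLC1 is an established Lewis lung carcinoma line of the mouse. It was grown as a subcutaneous graft in young adult male C57Bl6/J mice, whose treatment, 1 of 4, was drawn by chance after the graft had established. The other 10 tumors, 5 given vehicle and 5 given cisplatin without KW6002, shared no tumor with this comparison and served to set the cisplatin effect with KW6002 beside that without it. All tumors carried the same engrafted line, so both groups share its genetic background, and each library holds RNA of tumor cells and of mouse host cells together. The titles give replicate numbers but no animal numbers, so the P values measure the spread between these samples.

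Cisplatin forms platinum crosslinks between neighboring purines of DNA. These adducts block polymerases, are removed largely by nucleotide excision repair, and activate the kinases that stabilize p53, which in turn induces genes of cell cycle arrest, apoptosis and repair. KW6002 (istradefylline) blocks the adenosine receptor encoded by Adora2a, a receptor that raises cyclic AMP and restrains T cells and myeloid cells in adenosine-rich tumors.

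Cotreated tumors differed from KW6002 tumors in many of the functional groups examined. Among genes that rose were 30 of 52 tested p53 targets, the glutathione synthesis gene Gclc, the keratin-linker gene Ppl and the integrin gene Itga10. Among genes that fell were 48 of 54 interferon response genes, 26 of 36 cholesterol and fatty acid synthesis genes, 10 of 14 endothelial markers, 19 of 32 antigen presentation genes, 21 of 43 chemokine and receptor genes and 21 of 61 DNA replication genes. Globin transcripts were at or near 0 in all 5 cotreated tumors. Of 16665 genes tested with edgeR, 3884 (23.3%) were called, meaning an adjusted P under 0.05 and an absolute log2 fold change of at least 0.32. Of these, 2100 (12.6%) were raised and 1784 (10.7%) were lowered. Most changes were moderate, since 74.2% of the called genes changed by less than 1 on the log2 scale, while 117 rose and 92 fell by at least 2. The median log2 fold change over all tested genes was -0.01. In 4155 genes (24.9%) the 5 tumors of one group all lay above the 5 of the other, and 2839 called genes were among them. Levels are given as CPM, the counts per M reads of scaled library size, as mean ± SD with n = 5 per group, and a log2 fold change is given with its SE in parentheses.

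**Figure D1:**
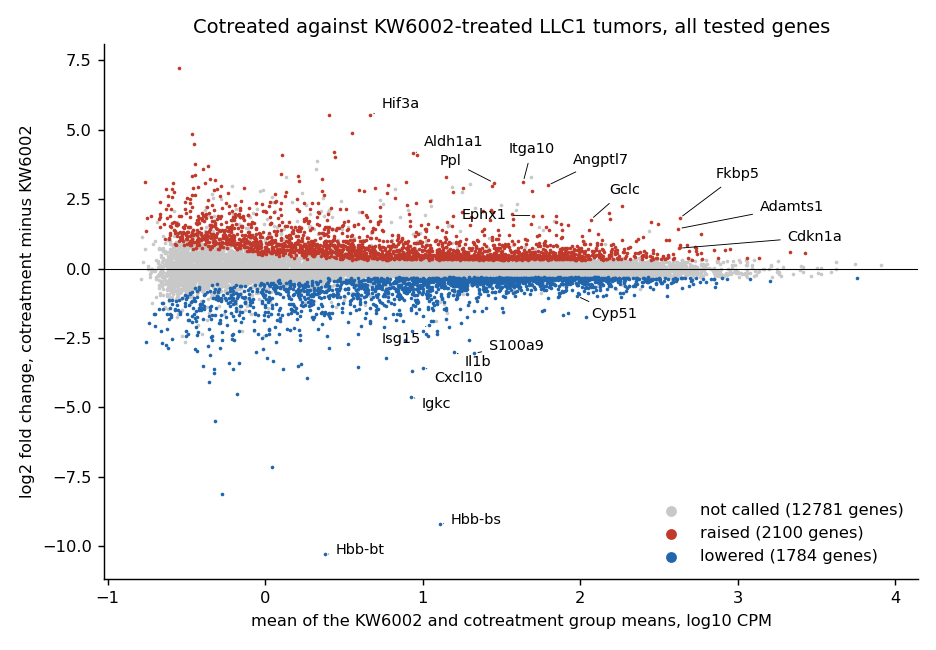
Log2 fold change of cotreated against KW6002 tumors (vertical axis) against the mean level of each gene in CPM on a log10 axis (horizontal axis), with 1 point per tested gene and called genes colored. Raised and lowered genes occur at all levels, 2100 above and 1784 below.

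Total counts ranged from 28.4 to 32.0 M reads in KW6002 tumors and from 29.4 to 41.0 M reads in cotreated tumors. The common biological coefficient of variation was 0.163. KW6002 replicate 5 and cotreatment replicate 4 stood apart on the second principal component (-39.6 and -41.9, against -11.9 to 26.2 in the other 8 tumors), and both were high in skeletal muscle transcripts, whose summed level was 386 and 1728 CPM against 8.77 to 144 CPM in the other 8. Without this pair, 3991 genes were called. Library codes in the sample descriptions fall into an earlier run (KW6002 replicates 1 and 2, cotreatment replicates 1 to 3) and a later run (KW6002 replicates 3 to 5, cotreatment replicates 4 and 5), within which 3440 and 1654 genes were called. KW6002 replicate 1 was high in lymphocyte transcripts, with a summed B cell marker level of 148 CPM against 7.09 to 16.9 CPM in the other 9. The labelled origin was checked against lung epithelial markers. Epcam, Sftpc and Scgb1a1 had at most 5, 1 and 2 counts in any of the 20 tumors and were not tested, so these defining markers of lung epithelium were at or near 0, while Krt8 and Krt18 were present (123 and 259 CPM on average in KW6002 tumors).

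The raised genes with the strongest statistical evidence were not all genes tied to DNA damage. Ephx1, an epoxide hydrolase that detoxifies reactive epoxides (ENSMUSG00000038776, GRCm38 chromosome 1, 180976210 to 181020904), measured 16.4, 21.9, 24.2, 23.6 and 20.1 CPM in KW6002 replicates 1 to 5 and 71.9, 83.7, 70.7, 87.7 and 84.6 CPM in cotreatment replicates 1 to 5. The groups did not overlap, and the log2 fold change was 1.91 (0.13), with an edgeR adjusted P of 2.01e-08. Ephx1 is also a member of the p53 target list used below, so it is not apart from genes tied to DNA damage. Angptl7, a secreted angiopoietin-like protein (ENSMUSG00000028989, chromosome 4, 148495183 to 148500460), rose from 11.7, 19.2, 14.1, 15 and 9.44 CPM to 98.5, 128, 135, 84.2 and 108 CPM. Its lowest cotreated tumor exceeded its highest KW6002 tumor by a wide margin, and its log2 fold change was 2.99 (0.20). Ppl encodes periplakin, which links keratin filaments to cell junctions (ENSMUSG00000039457, chromosome 16, 5086291 to 5132421). It measured 4.63, 5.64, 6.84, 5.92 and 6.76 CPM with KW6002 and 35.2, 65.2, 50.9, 43.5 and 58.5 CPM after cotreatment, a log2 fold change of 3.09 (0.20). Itga10, the collagen-binding integrin chain alpha 10 (ENSMUSG00000090210, chromosome 3, 96645584 to 96664519), rose from 6.47, 9.77, 10.7, 8.13 and 10.0 CPM to 70.1, 97.0, 108, 40.5 and 74.4 CPM. Cotreatment replicate 4 was the lowest of the cotreated tumors in Itga10 and in Angptl7, yet still above all KW6002 tumors. The other genes named by the same rule were Hhipl1 (37.5 to 114 CPM on average), Gprc5b (35.4 to 91.8), Serpine2, an inhibitor of thrombin and plasminogen activators (15 to 58.5), Cgref1 (3.37 to 13.1), P2ry14, a receptor for UDP-sugars (4.91 to 14.7), Mgst2, a microsomal glutathione transferase (19 to 39.3), Gria3, a glutamate receptor subunit (1.55 to 10.3), and Ptgfr, the prostaglandin F receptor (13.4 to 35.5).

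The raised genes of largest log2 fold change were low in KW6002 tumors. Hif3a, a hypoxia-inducible factor subunit that can restrain the other two, rose from 0.192 ± 0.136 to 9.13 ± 5.50 CPM. The log2 fold change was 5.53 (0.63). Tcf23, a helix-loop-helix factor, rose from 0.102 ± 0.0615 to 4.97 ± 2.79 CPM, and Nr1h4, the bile acid receptor FXR, from 0.234 ± 0.104 to 6.93 ± 3.54 CPM. In all 3 genes, cotreatment replicate 4 was lowest among the cotreated tumors (2.5, 1.46 and 2.34 CPM) and lay above every KW6002 tumor.

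Among lowered genes named by the same rule was Atp10a, a phospholipid flippase (ENSMUSG00000025324, chromosome 7, 58656166 to 58829420). It measured 79.9, 80.3, 83.3, 79.9 and 79.2 CPM in KW6002 tumors and 50.7, 47.9, 50.3, 53.6 and 47.3 CPM in cotreated tumors, a log2 fold change of -0.69 (0.05) with an edgeR adjusted P of 2.24e-08. Its groups were far apart relative to their spread. Nrp2, a coreceptor for semaphorins and vascular endothelial growth factors, fell from 292 ± 14 to 150 ± 22.6 CPM. The remaining genes of the rule were Ermp1 (192 to 98.2 CPM on average), Ets2 (39.1 to 23), Rgl1 (138 to 85.6), Fndc4 (17 to 7.49), Lmo7 (51.3 to 26.1), Bcl7a (22.1 to 12.8), Arhgap4 (16.7 to 6.80) and Ncbp2 (73.9 to 43.7).

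**Figure D2:**
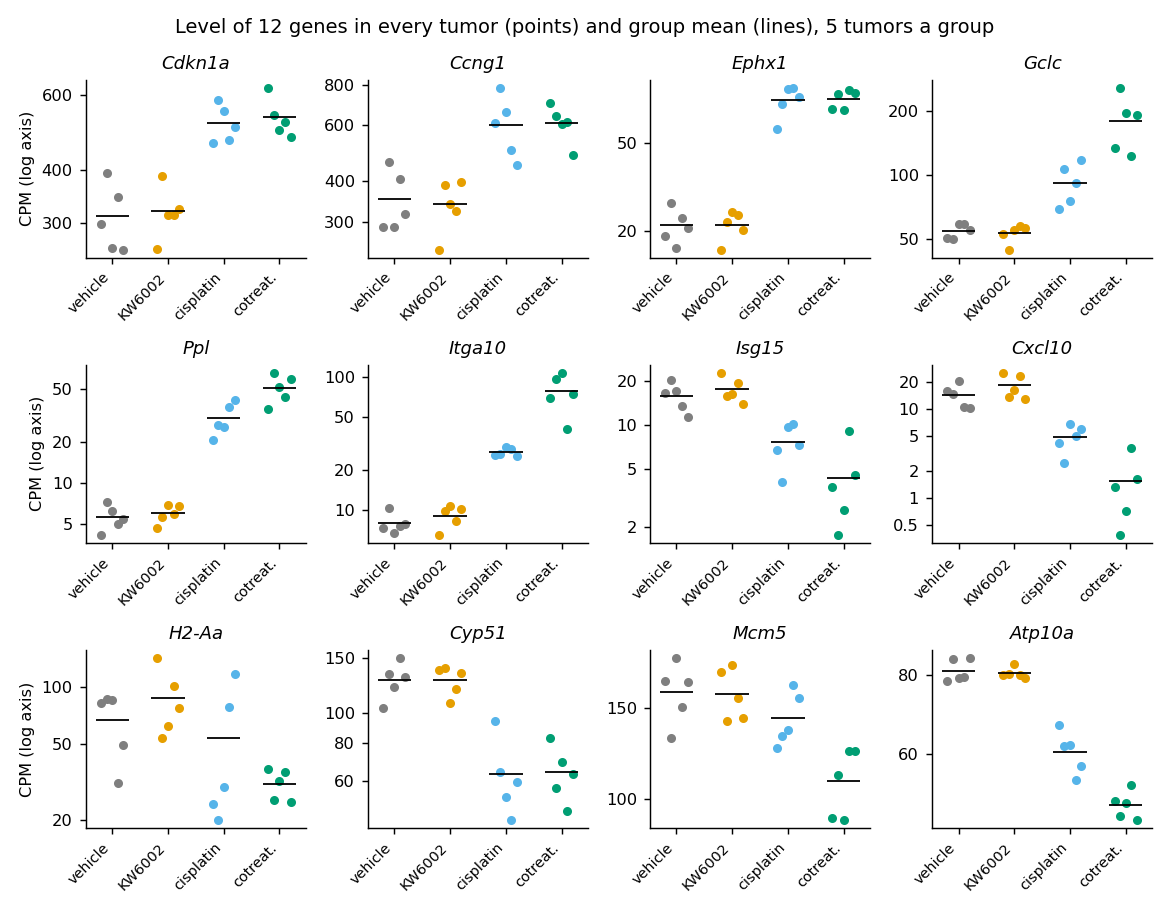
Level in CPM on log axes of 12 genes in each of the 20 tumors, by group, with 1 point per tumor and a bar at the group mean. The 5 cotreated tumors lie above the 5 KW6002 tumors for Cdkn1a, Ccng1, Ephx1, Gclc, Ppl and Itga10 and below them for Isg15, Cxcl10, H2-Aa, Cyp51, Mcm5 and Atp10a.

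Many targets of p53 were raised. Of 52 tested members, 30 were raised and 0 lowered, against 12.6% and 10.7% of all genes, and their median log2 fold change was 0.56 against -0.01. Cdkn1a, the p21 inhibitor of cyclin-dependent kinases (ENSMUSG00000023067, chromosome 17, 29090976 to 29100727), measured 261, 386, 313, 313 and 324 CPM with KW6002 and 622, 537, 495, 518 and 478 CPM after cotreatment. All cotreated tumors were higher, and the log2 fold change was 0.73 (0.11), with an edgeR adjusted P of 5.96e-05. Mdm2, the ubiquitin ligase that degrades p53, rose from 146, 159, 149, 154 and 156 CPM to 280, 273, 264, 262 and 224 CPM, which is 0.77 (0.09) on the log2 scale. Dcxr, a carbonyl reductase, rose from 10.1 ± 1.06 to 29.6 ± 5.46 CPM, and Ephx1, described above, is also a raised member of this list. Members singled out after their values were seen were Trp53inp1 (69.6 to 239 CPM), Ccng1 (339 to 609 CPM), Sesn1 (log2 fold change 1.08) and the proapoptotic Pmaip1 (1.21), Fas (0.74) and Bbc3 (0.68). Bax and Gadd45a, also singled out, had log2 fold changes of 0.23 and 0.15 and were not called. Leaving out any 1 tumor gave 30 to 32 called members, the earlier run of library codes 31 and the later run 20.

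Promoters of 43 tested p53 targets, taken as 250 bases before to 50 after the RefSeq start on GRCm38.p6, were searched for the p53 half-site by its consensus, on both strands and with overlapping matches counted. It was found in 11 (25.6%), against 6.87% of the 11443 tested genes with such a promoter, 7.67% of all raised and 6.94% of all lowered genes, and a match is a description, not a bound site. Bax and Gadd45a, which were not called, also hold a match. Ccng1 and Mdm2, which rose, are shown with the match in capitals, at -185 and -186 from the start, and Cdkn1a with matches at -73 and -51. The 250 bases before each start are chr11:40755287-40755536 on the minus strand for Ccng1, chr10:117710759-117711008 on the minus strand for Mdm2 and chr17:29090729-29090978 on the plus strand for Cdkn1a, each printed in the direction of transcription.
Ccng1: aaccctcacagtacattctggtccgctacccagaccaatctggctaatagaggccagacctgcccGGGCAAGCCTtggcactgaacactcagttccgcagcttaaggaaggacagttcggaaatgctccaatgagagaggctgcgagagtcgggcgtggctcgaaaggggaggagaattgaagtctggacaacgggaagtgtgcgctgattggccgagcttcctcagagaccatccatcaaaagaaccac
Mdm2: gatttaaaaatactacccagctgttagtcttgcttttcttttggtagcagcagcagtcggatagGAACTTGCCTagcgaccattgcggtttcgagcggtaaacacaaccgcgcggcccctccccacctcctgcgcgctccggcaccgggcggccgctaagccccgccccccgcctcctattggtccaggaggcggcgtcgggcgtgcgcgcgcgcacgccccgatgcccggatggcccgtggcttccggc
Cdkn1a: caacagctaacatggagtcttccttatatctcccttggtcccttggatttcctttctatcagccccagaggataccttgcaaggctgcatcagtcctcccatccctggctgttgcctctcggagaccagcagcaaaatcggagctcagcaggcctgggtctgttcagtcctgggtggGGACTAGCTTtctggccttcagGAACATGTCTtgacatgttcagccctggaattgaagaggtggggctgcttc

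Among 16 tested genes of the BCL2 family, which decides on mitochondrial outer membrane permeability, 5 were raised and 2 lowered, against 12.6% and 10.7% of all genes, with a median log2 fold change of 0.12. In the later code run 2 were raised and 0 lowered. Bcl2l1, the antiapoptotic BCL-XL, measured 92.2, 103, 109, 97.0 and 89.4 CPM in KW6002 tumors and 158, 169, 165, 141 and 138 CPM in cotreated tumors. Bmf, a proapoptotic BH3-only protein, measured 16, 18.8, 21.0, 18.5 and 19.1 CPM and 44.3, 70.1, 67.2, 29.2 and 68.5 CPM. Both an antiapoptotic and a proapoptotic member thus rose in all cotreated tumors, by 0.65 (0.07) and 1.58 (0.19) on the log2 scale. The lowered members were the proapoptotic Bik, at -1.63 (0.49) and under 1 CPM in all 10 tumors with overlapping groups, and Bok, at -0.41. The call of Bok was lost without KW6002 replicate 1, 3 or 4 or cotreatment replicate 1, 2 or 3.

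More DNA replication genes than mitotic genes were lowered. Of 61 tested replication genes 0 were raised and 21 lowered, against 12.6% and 10.7% of all genes, with a median log2 fold change of -0.24. Of 61 tested G2 and mitosis genes 1 was raised and 3 were lowered (6.56% called, below the 23.3% of all genes), with a median of -0.03. Cdc6, which loads the replicative helicase, fell from 44.0, 34.9, 42.2, 37.8 and 36.0 CPM to 22.9, 21.9, 22.3, 26.8 and 26.1 CPM. The log2 fold change was -0.70 (0.08). Mcm3, a helicase subunit, fell from 249 ± 20.7 to 162 ± 18.9 CPM, and the sliding clamp Pcna from 94.0 ± 10.2 to 68.1 ± 7.88 CPM. In Cdc6, Mcm3 and Pcna no cotreated tumor reached the lowest KW6002 tumor. Mki67, the proliferation antigen, fell by 0.43 (0.09), with an edgeR adjusted P of 1.31e-03, Kif14 fell by 0.36, and Pttg1, securin, rose by 0.34. The call of Kif14 was lost without KW6002 or cotreatment replicate 1, and that of Pttg1 without KW6002 or cotreatment replicate 2. Ccnd1, cyclin D1, measured 469 ± 36.2 CPM with KW6002 and 440 ± 40.5 CPM after cotreatment, and Rrm2, singled out after its value was seen, had a log2 fold change of 0.04, and neither was called. Replication genes called numbered 23 lowered in the earlier code run and 8 in the later one. The mitosis list had 2 raised and 0 lowered members in the later run (median 0.09), and 1 and 1 without KW6002 replicate 1.

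The E2F motif TTTNGCGC was searched on both strands of the same promoters, with overlapping matches counted. It was present in 10 of 50 replication genes (20%) against 2.25% of all promoters, and among all raised and all lowered genes in 1.24% and 2.65%. Mcm5, a helicase subunit that fell from 160 to 108 CPM and was picked for its match after its value was seen, is shown at chr8:75109259-75109508 on the plus strand, with a pair of overlapping matches at -153 and -149 in capitals.
Mcm5: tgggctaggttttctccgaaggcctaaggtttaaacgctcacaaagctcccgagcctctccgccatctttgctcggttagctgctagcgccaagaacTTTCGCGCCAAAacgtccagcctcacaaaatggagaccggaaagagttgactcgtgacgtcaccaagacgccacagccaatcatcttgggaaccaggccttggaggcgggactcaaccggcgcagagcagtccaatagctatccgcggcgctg

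Genes for repair of crosslinks and adducts were called about as often as all genes. Of 72 tested members 7 were raised and 11 lowered (25% called, against 23.3% of all genes), with a median of -0.05, so the values below describe single genes. In the later code run 9 members were called. Ercc5, the nuclease XPG that cuts on one side of a bulky adduct, rose from 54.4, 87.3, 78.5, 72.7 and 84.9 CPM to 147, 154, 138, 136 and 123 CPM. Rad18, a ligase that starts bypass of blocked forks, rose from 52.4 ± 3.58 to 68.6 ± 6.80 CPM. Chek1, a checkpoint kinase, fell from 38.0, 33.0, 35.7, 36.4 and 35.5 CPM to 23.4, 24.1, 24.1, 24.7 and 27.7 CPM, and Exo1, an exonuclease of end resection, from 33.1 ± 2.29 to 23.8 ± 2.08 CPM. The groups did not overlap for any of these 4 genes.

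Interferon response genes had the largest share of called members among the 26 pathway lists. Of 54 tested members 0 were raised and 48 lowered, against 12.6% and 10.7% of all genes, the median log2 fold change was -1.02, and the other 6 also had negative values. Irf1, a transcription factor of interferon signaling, fell from 92.0 to 106 CPM in the 5 KW6002 tumors to 68.3, 55.1, 58.5, 66.9 and 62.9 CPM. The log2 fold change was -0.68 (0.07) with an edgeR adjusted P of 5.10e-07. Parp14, an interferon-induced ADP-ribosyltransferase, fell from 75.5, 63.4, 60.6, 60.6 and 63.0 CPM to 39.2, 32.1, 37.9, 44.7 and 38.1 CPM. Neither gene's groups overlapped. Cxcl10, a chemokine that draws activated T cells, fell from 25.6, 13.9, 16.6, 23.4 and 13.2 CPM to 1.35, 0.386, 0.716, 3.69 and 1.62 CPM. The log2 fold change was -3.57 (0.44). Members singled out after their values were seen were Isg15, a ubiquitin-like modifier, at 22.8, 15.8, 16.3, 19.4 and 13.8 CPM against 3.74, 1.76, 2.59, 9.03 and 4.52 CPM, and Ifit1, which binds viral RNA caps, at 16.6 ± 4.13 against 3.51 ± 3.29 CPM. In Cxcl10, Isg15 and Ifit1 cotreatment replicate 4 was the highest cotreated tumor, and it remained below every KW6002 tumor. Lowered members numbered 42 in the earlier code run and 18 in the later one, with medians of -1.37 and -0.65, and 45 without KW6002 replicate 1.

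The interferon-stimulated response element was searched as GAAANN directly followed by GAAA, on both strands, with overlapping matches counted. It was present in the promoters of 25 of 41 interferon response genes (61.0%), against 3.13% of all promoters, 6.40% of those of all lowered genes and 2.00% of those of all raised genes. Isg15 (chr4:156200819-156201068, minus strand) holds 3 overlapping matches, at -78, -72 and -66, and Ifit1 (chr19:34640639-34640888, plus strand) holds 2, at -104 and -85. They are shown, with the matches in capitals, as members of the list that fell.
Isg15: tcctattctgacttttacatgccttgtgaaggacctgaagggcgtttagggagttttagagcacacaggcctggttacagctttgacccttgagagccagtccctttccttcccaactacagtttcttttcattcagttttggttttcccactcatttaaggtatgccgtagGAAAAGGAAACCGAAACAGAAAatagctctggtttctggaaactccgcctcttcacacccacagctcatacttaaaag
Ifit1: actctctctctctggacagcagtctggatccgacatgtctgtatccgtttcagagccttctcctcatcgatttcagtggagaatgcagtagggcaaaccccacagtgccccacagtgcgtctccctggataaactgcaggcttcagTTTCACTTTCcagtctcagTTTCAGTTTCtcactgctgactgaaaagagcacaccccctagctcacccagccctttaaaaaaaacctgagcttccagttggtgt

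Antigen presentation genes were lowered in 19 of 32 tested members and raised in 0, against 10.7% and 12.6% of all genes, with a median of -0.68. Tapbp, tapasin of the peptide loading complex, fell from 135, 143, 132, 136 and 116 CPM to 87.3, 72.8, 76.1, 93.2 and 82.3 CPM, and Erap1, which trims peptides, from 95.8 ± 8.62 to 51.7 ± 7.66 CPM. Both fell in every cotreated tumor, by 0.68 (0.07) and 0.89 (0.12) on the log2 scale. The class II gene H2-Aa, singled out after its values were seen, measured 142, 54.0, 62.2, 101 and 77.4 CPM against 37.0, 25.2, 31.8, 35.6 and 24.7 CPM. KW6002 replicate 1, the tumor high in B cell markers, was also its highest tumor, and their part in the result was not tested. The class I genes B2m and H2-D1, also singled out, had log2 fold changes of -0.23 and -0.09 and were not called. Lowered members numbered 14 without KW6002 replicate 1 and 5 in the later code run.

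Of 43 tested chemokines and chemokine receptors, 2 were raised and 21 lowered, against 12.6% and 10.7% of all genes, with a median of -0.69. Cx3cl1, the membrane-bound chemokine fractalkine, fell from 22.8 ± 1.83 to 14.2 ± 2.30 CPM. Ccl11, eotaxin, moved the other way, from 53.2, 48.1, 50.5, 44.6 and 55.5 CPM to 69, 109, 84.6, 81.2 and 109 CPM, and Ccl17 rose from 0.263 to 0.859 CPM, a call lost without KW6002 replicate 2, 3 or 5 or cotreatment replicate 3 or 5. Ccl2, the monocyte attractant, and Il1b, an inflammatory cytokine, both singled out after their values were seen, fell from 244 ± 35.6 to 121 ± 37.8 CPM and from 28.2 ± 10.8 to 3.49 ± 2.87 CPM. Lowered list members numbered 17 in the earlier code run and 6 in the later one.

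Markers of host cells moved in different directions. In bulk tumors fewer cells of a type and less RNA per cell cannot be told apart. Of 11 erythroid markers 5 passed the filter on low counts. They passed through the tumors without cisplatin, so that all 5 were called lowered is no measure of the list, and none would be tested if at least 10 counts were required in every tumor. The beta-globin gene Hbb-bs had 3935 counts over the 5 KW6002 tumors and 7 over the 5 cotreated tumors, a level 640-fold lower (95% counting interval 310 to 1592), and Hbb-bt had 0 counts over the 5 cotreated tumors, which is at least 278-fold lower against a floor of 3 counts over the group. Alas2, the first enzyme of erythroid heme synthesis, had 329 and 2 counts, 187-fold lower (51.4 to 1552). The intervals cover counting error only. The summed erythroid marker level was 26.1 to 50.8 CPM in KW6002 tumors and 0.193 to 0.374 CPM in cotreated tumors, so the groups were separated by every tumor.

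Endothelial markers were lowered in 10 of 14 and raised in 0, against 10.7% and 12.6% of all genes. The lowered numbered 4 in the earlier code run and 6 in the later one. Their sum was 311 to 427 CPM with KW6002 and 238 to 296 CPM after cotreatment. Cdh5, the endothelial cadherin, fell from 55.5, 37.4, 40.6, 42.0 and 46.2 CPM to 24.2, 17.1, 27.9, 19.6 and 20.3 CPM. Kdr, the main receptor for vascular endothelial growth factor, was singled out after its value was seen and fell from 15.8 ± 2.42 to 7.72 ± 0.842 CPM. Macrophage and monocyte markers were raised in 3 and lowered in 4 of 17, with overlapping sums of 2876 to 3863 and 3117 to 4388 CPM. Neutrophil markers were lowered in 5 of 9 and raised in 0, with sums of 108 to 248 and 67.4 to 107.6 CPM, and 0 of them were called in the later code run alone. T and NK cell markers were lowered in 11 of 19 and raised in 0. Their sum reached 65.6 CPM in KW6002 replicate 1 and 12.5 to 30.4 CPM in the other KW6002 tumors, against 10.0 to 18.5 CPM after cotreatment, and without KW6002 replicate 1 the lowered markers numbered 5. B cell markers were lowered in 2 of 5 and in 0 without that tumor. The called B cell markers numbered 4 without KW6002 replicate 2, 3 or 5 and 1 without cotreatment replicate 1, 2, 3 or 5. Igkc, the kappa light chain, measured 76.2, 0.129, 0.222, 3.55 and 1.05 CPM against 2.03, 0.496, 0.307, 0.275 and 0.0312 CPM. Its groups overlapped, and its call (edgeR adjusted P of 0.0272) was lost without KW6002 replicate 1 and without cotreatment replicate 2, 3, 4 or 5. All 16 skeletal muscle markers had positive log2 fold changes (median 2.07), 0 were called, and 13 were raised without KW6002 replicate 5. Adipocyte, fibroblast and skin markers were raised in 1 of 10, 3 of 15 and 1 of 2 and lowered in 0, 3 and 0. Lung epithelial markers were raised in 3 of 6 (Krt8, Krt7 and Ager). The part of cell composition in the changes of the immune lists was not tested.

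**Figure D3:**
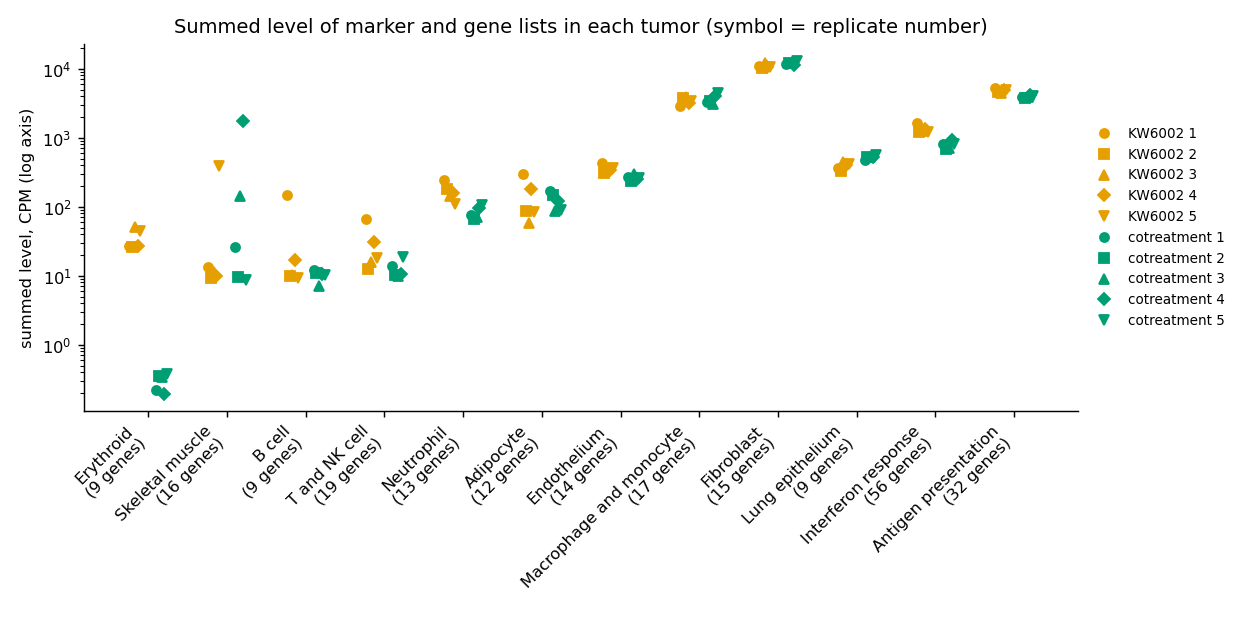
Summed level in CPM on a log axis of 12 gene lists in each of the 10 tumors, by group. Erythroid sums are 26.1 to 50.8 with KW6002 and 0.193 to 0.374 after cotreatment, while muscle sums overlap and are highest in KW6002 replicate 5 and cotreatment replicate 4.

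The A2 adenosine receptor genes Adora2a and Adora2b fell. Of 25 tested genes of adenosine reception and metabolism, 2 were raised and 4 lowered, a share near that of all genes, with a median of -0.10. Adora2a, the receptor that KW6002 blocks (ENSMUSG00000020178, chromosome 10, 75316877 to 75334784), measured 1.49, 0.742, 0.760, 0.801 and 0.651 CPM with KW6002 and 0.416, 0.110, 0.443, 0.413 and 0.437 CPM after cotreatment. Its level was low in all 10 tumors and lower in all 5 cotreated tumors, with a log2 fold change of -1.29 (0.37) and an edgeR adjusted P of 9.88e-03. Adora2b, the low-affinity adenosine receptor, fell from 15, 19.8, 18.1, 14.8 and 19.1 CPM to 8.10, 7.58, 7.64, 11.3 and 8.95 CPM, without overlap. Entpd1, the ectonucleotidase CD39, fell from 41.4 ± 2.86 to 27.9 ± 2.70 CPM. Nt5e, the ecto-enzyme that makes adenosine from AMP, measured 14.4, 10.7, 11.4, 10.6 and 11.7 CPM against 8.27, 6.03, 12.7, 9.25 and 9.14 CPM. Its groups overlapped, and it was not called (-0.38 (0.15), edgeR adjusted P of 0.0537). It was called without cotreatment replicate 3, vehicle replicate 4 or cisplatin replicate 1, and adjusted P ranged from 0.00666 to 0.170 when 1 tumor was left out. Ampd3, an AMP deaminase, rose from 24.0 ± 3.14 to 73.2 ± 26.4 CPM, and Nt5c2, a cytosolic nucleotidase, from 70.6 ± 2.98 to 112 ± 15.5 CPM.

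Genes that handle platinum and oxidants were called about as often as all genes. Of 51 tested glutathione, metallothionein and NRF2 genes, 12 were raised and 0 lowered (23.5% called, against 23.3% of all genes, of which 12.6% were raised and 10.7% lowered), with a median of 0.17, and the members named by rule were Ephx1 and Mgst2. Gclc, the catalytic subunit of the first enzyme of glutathione synthesis, was singled out after its values were seen. It measured 52.6, 44.5, 55.2, 57.5 and 56.5 CPM with KW6002 and 134, 257, 195, 123 and 191 CPM after cotreatment, a log2 fold change of 1.76 (0.18), without overlap. Of 20 tested genes for platinum transport, 4 were raised and 0 lowered (20% called), with a median of 0.04. Some settings gave lowered members in both lists, with 8 raised and 1 lowered glutathione genes and 3 and 1 transport genes in the earlier code run, and 11 and 2 and 4 and 1 without KW6002 replicate 5 and cotreatment replicate 4. Slc31a1, the high-affinity copper transporter that also carries cisplatin, measured 85.1 ± 3.27 and 86.9 ± 4.34 CPM and was not called, with a log2 fold change of 0.03 (0.05). Slc31a2, its low-affinity relative, rose from 29.6, 33.0, 30.5, 26.9 and 30.8 CPM to 40.2, 50, 48.5, 41.4 and 54.8 CPM, and Abcg2, an efflux pump, from 15.5 ± 1.08 to 23.5 ± 2.37 CPM. Slc47a1 and Abcc2, exporters of cisplatin or its conjugates, had at most 11 and 9 counts in any tumor and were not tested.

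Cholesterol and fatty acid synthesis genes were lowered in 26 of 36 members and raised in 1, against 10.7% and 12.6% of all genes, with a median of -0.56. Dhcr7, the last enzyme of cholesterol synthesis, fell from 47.8, 49.2, 40.2, 39.1 and 40.8 CPM to 29.9, 22.5, 23.4, 21.4 and 25.4 CPM, and Fdft1, squalene synthase, from 76.3 ± 3.02 to 45.1 ± 6.34 CPM. Cyp51, lanosterol demethylase, singled out after its value was seen, fell from 127 ± 13.9 to 64.1 ± 13.0 CPM. These 3 enzymes were lower in every cotreated tumor. The raised member was Acss2, which makes acetyl-CoA from acetate, at 0.35 (0.10), a call lost without KW6002 replicate 4 or cotreatment replicate 3. The list gave 22 lowered members in the earlier code run and 24 in the later one.

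Called ribosome and chaperone genes were more often lowered than raised, against 12.6% raised and 10.7% lowered of all genes. Of 74 ribosome biogenesis and RNA polymerase I genes 0 were raised and 18 lowered (24.3% called, median -0.22), led by Polr1d, a subunit shared by polymerases I and III, which fell from 75.7, 70.6, 81.0, 74.8 and 68.4 CPM to 46.4, 42.3, 46.0, 52.4 and 52.5 CPM, and the helicase Ddx10 (90.8 to 68.8 CPM). Of 80 cytosolic ribosomal protein genes 1 was raised and 10 lowered (13.8% called, below the 23.3% of all genes, median -0.15). The called members numbered 7 without KW6002 replicate 1 or 3 or cotreatment replicate 1, 2 or 3, and 1 in the later code run. Among the lowered were Rpl13a at -0.80 (0.09) and Rpl15 at -0.44 (0.08). Rpl5, which binds Mdm2, was the raised one at 0.32, with overlapping groups and a call lost without KW6002 replicate 1 or cotreatment replicate 1 or 3. Ribosomal protein genes have many processed pseudogene copies, so their unique counts are uncertain. Of 29 cytosolic chaperone genes 2 were raised and 11 lowered (44.8% called, median -0.29). Hsph1, a large heat shock protein, fell from 184 ± 22.3 to 93.6 ± 11 CPM and Stip1, an HSP70 and HSP90 linker, from 293 ± 17.9 to 207 ± 10.6 CPM, whereas Dnajb4 rose from 42.7 ± 4.71 to 75.8 ± 7.33 CPM. Nucleotide synthesis genes were raised in 2 and lowered in 10 of 33, with Umps, which makes UMP, at -0.58 (0.06) and Atic, which closes the purine ring, at -0.50 (0.06). Nuclear subunits of oxidative phosphorylation were lowered in 1 of 76 and raised in 0, and mitochondrially encoded genes were raised in 1 of 7 (mt-Nd1, 0.59). The called subunits numbered 0 without KW6002 replicate 2, 4 or 5 or cotreatment replicate 2, 3 or 4 and 2 without cotreatment replicate 5, and the mitochondrially encoded genes called numbered 3 without KW6002 replicate 5 and 2 without cotreatment replicate 3. In the later code run the called members were 8 for ribosome biogenesis and 8 for chaperones.

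Matrix and signaling lists differed in their share of called members, up to 48.7% for senescence-associated secretion, against 23.3% of all genes. MAPK (25.6%) and junction genes (26.1%) were near the share of all genes. Of 33 tested collagens 7 were raised and 4 lowered (33.3%). Col6a1 rose from 683 ± 40.3 to 1112 ± 131 CPM, and Col28a1 from 2.75 ± 0.760 to 6.80 ± 1.30 CPM, while Col8a1 and Col5a3 fell by 0.87 (0.14) and 0.86 (0.18). Integrins and laminins were raised in 4 and lowered in 9 of 34, with Itga10 and Lama2 (0.87) raised and Itga4 (-0.91), a leukocyte integrin chain, lowered. Junction genes were raised in 1 of 23 (Ppl) and lowered in 5, among them Gja1, connexin 43, which fell from 874 ± 70.4 to 555 ± 84.5 CPM. Matrix proteases and serpins were raised in 6 and lowered in 11 of 45. Plau, the urokinase plasminogen activator, fell from 596, 450, 393, 504 and 439 CPM to 283, 198, 238, 257 and 228 CPM. Genes of MAPK feedback and the immediate early response were raised in 3 and lowered in 8 of 43, with the phosphatase Dusp1 at 1.38 (0.24) and Phlda1 at -0.73 (0.15). Senescence-associated secretion genes were raised in 5 and lowered in 14 of 39. Among them Cdkn1a rose, and the lamin gene Lmnb1 fell from 92.4 ± 8.77 to 63.2 ± 3.72 CPM. The other lowered member named by rule, Glb1, fell from 120 ± 4.70 to 86.7 ± 9.65 CPM, without overlap. Stress and unfolded protein response genes were raised in 4 and lowered in 8 of 31, with Ddit4, an inhibitor of mTORC1, at 0.80 (0.12) and Sdf2l1, an endoplasmic reticulum protein, at -0.76 (0.10). Hypoxia and glycolysis genes were raised in 1 and lowered in 3 of 39, with 9 lowered in a fit of only the 10 tumors compared, 17 lowered in the earlier code run alone and 7 and 9 called members without cisplatin replicate 2 and replicate 5. In the later code run the MAPK list had 1 raised and 0 lowered members and the collagens 1 and 1, while the senescence list had 3 and 5, the stress list 3 and 2, and integrins and laminins 3 and 5. Myc measured 424, 323, 344, 389 and 299 CPM against 245, 222, 236, 313 and 229 CPM. Its groups overlapped through cotreatment replicate 4, and its log2 fold change was -0.51 (edgeR adjusted P of 9.01e-03).

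**Figure D4:**
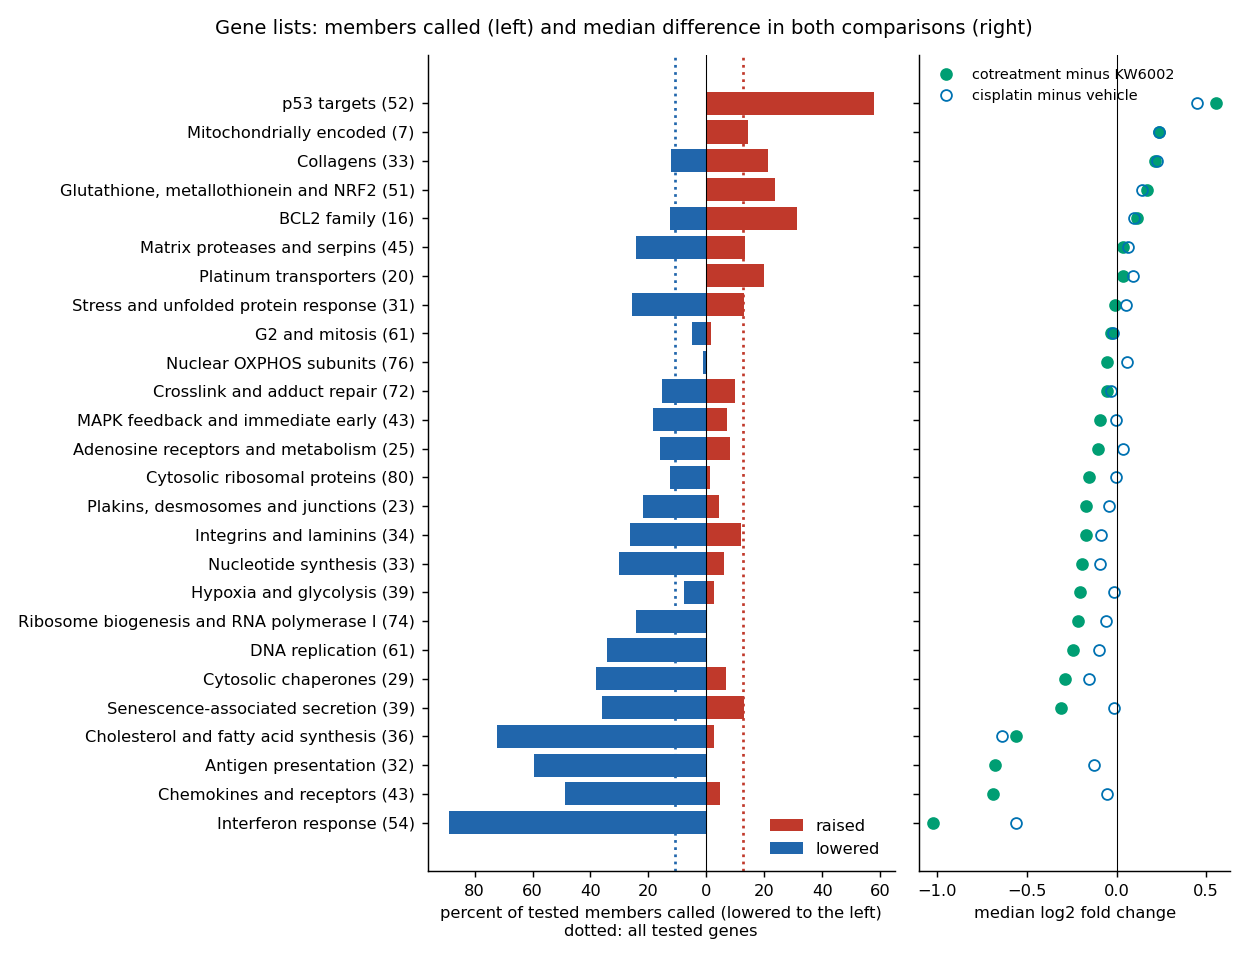
Percentage of tested members raised and lowered in each of 26 gene lists, and the median log2 fold change of each list in cotreated against KW6002 tumors and in cisplatin against vehicle tumors. Interferon response (48 of 54 lowered) and p53 targets (30 of 52 raised) lie at opposite ends, and the interferon median is -1.02 with KW6002 and -0.56 without.

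The cisplatin effect without KW6002 was computed from the other 10 tumors to ask where the effect under KW6002 differs from it. In cisplatin against vehicle tumors 1762 genes (10.6%) were called, 1001 (6.01%) as raised and the rest (4.57%) as lowered. Of these, 1366 were called in the same direction under KW6002, which is 77.5% of the 1762 and 35.2% of the 3884. Across genes the log2 fold changes had a Pearson r of 0.752 and a Spearman rho of 0.676 over 16665 genes, a description in which genes are not independent replicates. A score of mean log2 level over the 1762 genes, raised minus lowered and centered on KW6002 tumors, was -0.135, 0.035, 0.110, 0.047 and -0.057 in KW6002 replicates 1 to 5 and 1.38, 1.96, 1.53, 1.5 and 1.70 in the cotreated tumors. These 1762 genes were chosen on tumors outside the comparison, and every cotreated tumor scored above every KW6002 tumor. The p53 list had 32 of 52 raised without KW6002 (median 0.45) and the cholesterol list 26 of 36 lowered (median -0.64), counts close to those under KW6002. The interferon list had 17 of 54 lowered (median -0.56), antigen presentation 2 of 32 (median -0.12), DNA replication 1 of 61 (median -0.10) and ribosome biogenesis 0 of 74 (median -0.06). A larger count in one comparison than in the other does not show that the effects differ. In the test of the difference itself, edgeR called 0 members of the interferon, antigen presentation, replication and ribosome biogenesis lists. An unadjusted edgeR P under 0.05 was found for 16 of 54, 11 of 32, 18 of 61 and 24 of 74 members. Over all 16665 genes, 2034 had such a P. DESeq2 called 3, 0, 3 and 3 members, beside 261 of all 16665 genes.

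That test, the cisplatin effect with KW6002 minus the effect without it, called 11 genes (0.0660%), with 2034 genes at an unadjusted P under 0.05. The count was 261 by DESeq2 and ranged from 0 to 229 when 1 tumor was left out. For 6 genes the difference was positive. Adamts1, a matrix metalloprotease that cuts aggrecan and versican, measured 221, 235, 240, 211 and 230 CPM with KW6002 and 510, 803, 750, 371 and 638 CPM after cotreatment, while vehicle and cisplatin tumors ranged from 218 to 292 and from 284 to 334 CPM. The difference was 1.14 on the log2 scale, with an edgeR adjusted P of 0.0391. Stk38, a Hippo-related kinase, rose from 157 ± 9.78 to 345 ± 71.7 CPM (difference 0.80), Ptgfr from 13.4 to 35.5 CPM (0.88), Pik3r1, the regulatory subunit of PI3 kinase, from 149 ± 16.3 to 251 ± 35.9 CPM (0.67), and 4930523C07Rik from 25.2 to 44.6 CPM (0.80). Enpp2, autotaxin, was the only gene called in opposite directions, at 0.42 with KW6002 and -0.35 without it, a difference of 0.77. For others the difference was negative. Arhgap4, a GTPase-activating protein of blood cells, fell by 1.30 (difference -0.92), Bcl7a, a chromatin remodeling subunit, by 0.79 (-0.52), Plcb2, a phospholipase C of leukocytes, by 0.70 (-0.88), and Psd4 by 0.49 (-0.66). The 10 genes named here were also called by DESeq2, and when each of the 20 tumors was left out in turn they kept the call in 4 to 12 of 20 fits, most often Enpp2. None of them was called in a model with the replicate number as a block, where their adjusted P values were 0.0502 to 0.0769.

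**Figure D5:**
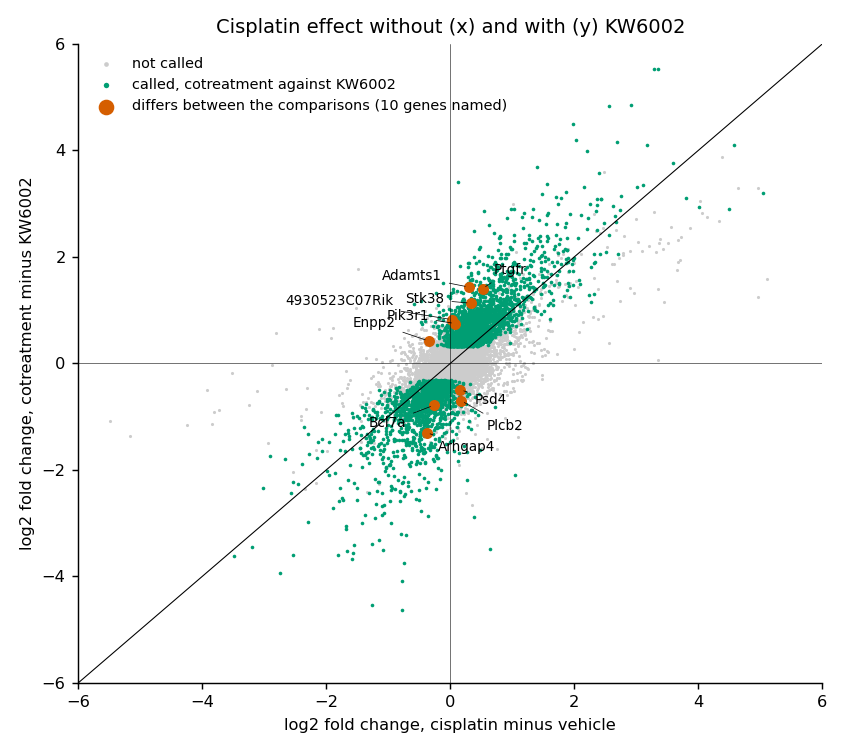
Log2 fold change of cotreated against KW6002 tumors (vertical axis) against that of cisplatin against vehicle tumors (horizontal axis), with 1 point per tested gene and 10 genes whose difference was called marked. Points spread along the diagonal (Pearson r of 0.752), and Enpp2 lies at 0.42 with KW6002 and -0.35 without. Both axes end at a log2 fold change of 6 in either direction, and 7 genes lie outside these limits.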

How the data were processed

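Poly(A)-selected, stranded mRNA libraries, 1 per tumor, were sequenced as single-end reads. Per the submitters' processing notes and the study's methods, the authors mapped reads with STAR to mm10 (GRCm38) and took only unique alignments into the counts per Ensembl gene made with HTSeq 0.6.1p1. The strand option is not given in the sources used here. The deposited values are raw counts for 35226 genes, of which 35142 had a symbol and position in GENCODE M21. All 20 count columns matched a sample, and 0 were unused. No pair of replicates within the KW6002 group or within the cotreatment group was as close as sampling noise.

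Counts were tested with edgeR 4.0.16 (R 4.3.3) by its quasi-likelihood test, with TMM scaling, filterByExpr by group, robust dispersions and 4 group means over all 20 tumors. Tests were two-sided, with Benjamini-Hochberg adjustment over 16665 genes, which held 99.9% of counts. Genes were called at an adjusted P under 0.05 and an absolute log2 fold change of at least 0.32. The test was checked on simulated data. Reads carry no molecular identifiers.

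Genes were named by rule: the 12 raised and 12 lowered genes of smallest adjusted P without overlap and with a mean of at least 50 counts, the 2 raised and 2 lowered of smallest adjusted P in each pathway list, 12 genes by name, genes called in the interaction, and the 3 largest changes each way. Of these, 1 gene is not reported here. Other named genes are marked as singled out. The members, lists and rules were chosen with earlier results of these data known. Alternatives were DESeq2 1.42.0, other scalings, filters and fold limits, a replicate block, library code runs (an earlier and a later series of codes in the descriptions), and leaving out single tumors. Promoter stretches are from RefSeq GRCm38.p6.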

Additional observations from a re-analysis of the deposited data

Results flagged for a closer look

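Among 252 groups of 5 tumors examined, 16 (6.35%) held 1 tumor far from the other 4 by Dixon's test at the 95% level, which chance alone gives in about 1 of 20 groups. Among them were transcripts of host cells. Skeletal muscle markers summed to 386 CPM in KW6002 replicate 5 (9.41 to 13.2 in the other KW6002 tumors) and to 1730 CPM in cotreatment replicate 4 (8.77 to 144 in the other cotreated tumors). B cell markers summed to 148 CPM in KW6002 replicate 1 (9.15 to 16.9), where Igkc measured 76.2 CPM (0.129 to 3.55), and Igkc measured 2.03 CPM in cotreatment replicate 1 (0.0312 to 0.496).

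Other tumors were flagged for single genes. KW6002 replicate 1 was high in Parp14 (75.5 CPM, the others 60.6 to 63.4), Adora2a (1.49 CPM, the others 0.651 to 0.801) and Nt5e (14.4 CPM, the others 10.6 to 11.7). KW6002 replicate 3 was high in Atp10a (83.3 CPM, the others 79.2 to 80.3), and KW6002 replicate 4 in Nr1h4 (0.416 CPM, the others 0.158 to 0.217). Cotreatment replicate 4 was low in Dnajb4 (63.0 CPM, the others 76.8 to 81.4) and high in Col5a3 (70.2 CPM, the others 50 to 53.9) and Myc (313 CPM, the others 222 to 245). Cotreatment replicate 1 was high in Ddx10 (74.0 CPM, the others 66.8 to 68.8), replicate 3 was low in Bcl7a (11.6 CPM, the others 12.9 to 13.4), and replicate 2 was low in Adora2a (0.110 CPM, the others 0.413 to 0.443).

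The cisplatin effect differed with and without KW6002 in the 10 genes named here by edgeR's interaction term. The log2 differences were 1.14 for Adamts1, 0.884 for Ptgfr, 0.805 for Stk38, 0.796 for 4930523C07Rik, 0.771 for Enpp2 and 0.672 for Pik3r1, and -0.920 for Arhgap4, -0.877 for Plcb2, -0.656 for Psd4 and -0.522 for Bcl7a. Enpp2 kept the call in 12 of 20 fits that each left out 1 tumor, and the other 9 of these genes in 4 to 8.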

How the results depend on the processing

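The count of 3884 called genes moved by over 1.5 times under 3 settings, to 5837 with no fold limit, to 1763 when tested against the fold limit, and to 1654 in the later code run alone, which holds 3 KW6002 and 2 cotreated tumors. DESeq2 called 3929 genes, 3762 of them shared, and fits leaving out 1 tumor called 3289 (without cotreatment replicate 2) to 4058 (without cotreatment replicate 4). The 11 genes of the interaction moved to 261 with DESeq2, 21 with no filter, 39 with at least 10 counts in every tumor, 17 with code run as a term, and 218 without KW6002 replicate 5 and cotreatment replicate 4, an alternative chosen after seeing the data. They moved to 0 when tested against the fold limit, in either code run alone and with a replicate block, and to 0 to 229 when 1 tumor was left out (0 without vehicle replicate 2, cisplatin replicate 3, KW6002 replicate 1, 2 or 4 or cotreatment replicate 2 or 3, and 229 without cotreatment replicate 4). The cause was not tested. With the replicate block 3768 genes were called in the main comparison. In their deviations from the group means, same-numbered tumors correlated at 0.0737, 0.131, -0.144, -0.245 and -0.392. This measure showed no consistent pairing by number, but it cannot settle whether the numbers pair the samples. Of 112 called named genes 101 kept the call in every fit leaving out 1 tumor, and 0 reversed in the alternatives that gave them a value (32 or 33 for each gene). Adora2a rests on few reads, at most 48 counts in any tumor.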

Other observations

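The genes in this section were chosen after their values were seen, and their values are descriptions. Genes known to be induced by glucocorticoids were raised in 12 of 19 tested members and lowered in 0, beside 12.6% and 10.7% of all genes, and 9 to 14 were raised under the alternatives (2 were lowered in the earlier code run alone). Fkbp5, a cochaperone of the glucocorticoid receptor, measured 159, 179, 218, 198 and 195 CPM in KW6002 tumors and 574, 790, 785, 446 and 745 CPM in cotreated tumors. Tsc22d3, the glucocorticoid-induced leucine zipper, measured 50.8, 65.4, 71.8, 57.3 and 61.0 CPM and 182, 331, 287, 138 and 275 CPM. Both genes were higher in every cotreated tumor, with log2 fold changes of 1.82 (0.15) and 1.98 (0.22). Cotreatment replicate 4 was the lowest cotreated tumor in both, as in Hif3a. Klf9, Sgk1, Zbtb16 and Per1 were also raised (1.58, 1.04, 4.19 and 1.24). Among members not called were Nfkbia, Lcn2, Errfi1 and the metallothionein genes Mt1 and Mt2.

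Circadian clock genes were raised in 6 of 18 and lowered in 0, beside 12.6% and 10.7% of all genes. Per2, a repressor of the clock, rose from 8.30, 10.3, 13.4, 9.51 and 9.47 CPM to 38.2, 52.4, 41.3, 37.2 and 52.3 CPM, a log2 fold change of 2.12 (0.25), and Cry2 and Tef by 0.59 and 0.88. Arntl, Clock, Nr1d1 and Dbp were not called.

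Long noncoding genes were raised more often than they were lowered, but not more often than protein-coding genes of like count in every subset of tumors. In 4 annotation classes together (lincRNA, antisense, processed transcript and bidirectional promoter lncRNA) 360 of 1244 tested genes were raised (28.9%) and 93 lowered (7.48%), with a median of 0.26. The middle part of them by mean count, between the quartiles of 15.4 and 100 counts, held 622 genes, of which 30.7% were raised and 8.84% lowered (median 0.30). Protein-coding genes in that count range were raised in 354 and lowered in 291 of 1869 (18.9% and 15.6%, median 0.05). Neat1, the scaffold of paraspeckles and far above that range, rose from 2178 ± 208 to 3173 ± 747 CPM and Tug1 from 166 to 227 CPM, while Malat1 had a log2 fold change of 0.08 and was not called. Within that count range, 16.9% of the noncoding and 11.4% of the protein-coding genes were raised in the earlier code run, and 4.98% and 7.92% in the later one. Lowered were 2.25% and 3.48% in the later run, where the medians were 0.27 and 0.14. The strand option of the counting is not given in the sources used here, so reads of antisense genes and of their partners may not be separated.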
